A study of Mus musculus with 2 samples.

Results

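The 36 genes described here are mouse protein-coding genes under genomic imprinting, taken from a list by their symbols in the feature table. All 36 were found, each under 1 identifier, among 21937 gene features. Cells came from embryos at E11.5 that carried piggyBac copies of EGFP under the ubiquitous CAG promoter, each linked to a DNA barcode. F0_8 and F0_9 were founder embryos, made by in vitro fertilisation, electroporation of transposase (mPBase) mRNA into the fertilised egg and injection of the donor DNA. The next generation gave F1_1, while F1_mix combined cells of F1 embryos as an artificial mosaic. The suspensions were labelled with CellPlex oligos, pooled and captured together with a 3′ droplet chemistry, so that 1 UMI counts 1 captured RNA molecule. Founders and F1 differed in embryo handling as well as in generation, which cannot be told apart here. The sources used here do not give the F1 cross. The comparison therefore has 2 founder suspensions and 2 F1 suspensions, and it asks how far expression in founders differed from that in the next generation.

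Imprinted genes carry methylation or histone marks set in the egg or the sperm and are then expressed mainly from 1 parental allele. Many sit in clusters under a shared control region, and as a class they are known for setting growth before birth, placental function and the development of brain and skeletal tissue. Of the 36 genes, 20 are known mainly as paternally expressed and 16 as maternally expressed, some of the latter only in some tissues or from some isoforms. The UMIs carry no allele information, so the parental allele could not be read.

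In all, 5678 cells in 16 deposited cell types were used, with 1310 to 1599 cells and 16052917 to 19160116 gene UMIs per suspension, and no barcode was shared between suspensions. The 12 deep types had a median depth above the median of all cells (12071.5 UMIs) divided by 3, and the other 4, Hepatocyte, Foregut, Midgut and Endodermal Progenitor, had medians of only 721.5 to 1674 gene UMIs per cell. Marker genes went against some deposited names. The neuron markers Tubb3, Stmn2, Dcx and Elavl3 were at a summed 75.1 per 10000 UMIs outside mitochondrial and globin genes in the cells labelled Neuroectoderm/Glia, against 57.0 in CNS Neuron, while Sox2, Fabp7, Pax6 and Vim were at 3.33 in Neuroectoderm/Glia and 40.4 in Neuronal Progenitor. The hepatocyte markers Alb, Afp, Apoa1 and Ttr stood at 0.0611 in the cells labelled Hepatocyte. The cartilage markers Sox9, Col2a1, Col9a1 and Acan were at 8.78 in Gut Mesenchyme/Amniotic Mesoderm and 7.06 in Chondrocyte. Names are used below as deposited. Y-linked genes were at 2.43 UMIs per 10000 in F0_8 and 1.17 in F1_mix, and at 0.0299 in F0_9 and 0.0227 in F1_1, so sex was mixed within each generation.

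Stretches of regulatory sequence are shown because the neighbouring genes Peg3 and Usp29, and the gene Nnat, carry the differences described at the end. Both are from RefSeq (GRCm38.p6, the build of the study's reads), on the plus strand, with CG dinucleotides, the positions where imprinting methylation is placed, in capitals. The first is the whole interval between the Peg3 and Usp29 gene models, chr7:6730463-6730558, from which Peg3 is read leftward and Usp29 rightward. The second is the 250 bases before the start of Nnat, chr2:157559828-157560077, inside the gene model of Blcap, which is read from the opposite strand.
Peg3-Usp29: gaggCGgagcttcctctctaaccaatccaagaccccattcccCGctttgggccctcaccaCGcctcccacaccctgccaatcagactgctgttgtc
Nnat: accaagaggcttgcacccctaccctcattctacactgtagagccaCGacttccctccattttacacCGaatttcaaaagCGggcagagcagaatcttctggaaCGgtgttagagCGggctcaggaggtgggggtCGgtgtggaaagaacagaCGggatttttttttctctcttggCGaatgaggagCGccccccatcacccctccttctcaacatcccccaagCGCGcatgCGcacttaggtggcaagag
The Peg3-Usp29 interval is 96 bases long with 3 CG dinucleotides, and the Nnat stretch holds 12. Only 96 bases thus separate a zinc finger gene and a ubiquitin protease gene that run apart from each other. TGCCGC, the core motif of the imprinting factor ZFP57, was searched on both strands (complement GCGGCA) and was in neither stretch; the RefSeq start window of Nnat, which reaches past its start, held 1. In the RefSeq start windows of 300 bases it was present for 11 of the 30 imprinted genes with a window (36.7%), Nnat among them, and for 13.1% of all 27025 genes with a window. The windows of the imprinted genes held a median of 18.5 CG dinucleotides, against 8 over all genes. Rtl1, Cdkn1c, Sgce, Kcnq1, Peg10 and Impact had no entry.

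Values by suspension are in the order F0_8, F0_9, F1_1, F1_mix. Levels are UMIs per 10000 gene UMIs of the cells concerned, with exact Poisson 95% intervals that cover counting error only. Since cell types had been defined from the same transcriptomes, levels across types are a description with no test. Lowest levels and fold ranges below are over the 10 deep types outside red blood cells, which are described apart. Together the 36 genes held 467586 UMIs, 0.678% of all gene UMIs, and Gnas, Nnat and Cdkn1c held 58.7% of these. The joint level was 91.5 in Chondrocyte, 89.2 in Gut Mesenchyme/Amniotic Mesoderm, 87.2 in Neuroectoderm/Glia and 83.5 in CNS Neuron, 46.8 in Neuronal Progenitor and 38.6 in Hematoendothelial Progenitor/Endothelium. Of the 36 genes, 12 were highest among deep types in Neuroectoderm/Glia, 9 in Gut Mesenchyme/Amniotic Mesoderm, 5 in Chondrocyte and 4 in CNS Neuron. These counts include Dio3 and Rtl1 in Chondrocyte and Calcr in Neuroectoderm/Glia, each with few UMIs. The same count over all genes was not made. For 14 genes the same type was highest in all 4 suspensions.

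**Figure D1:**
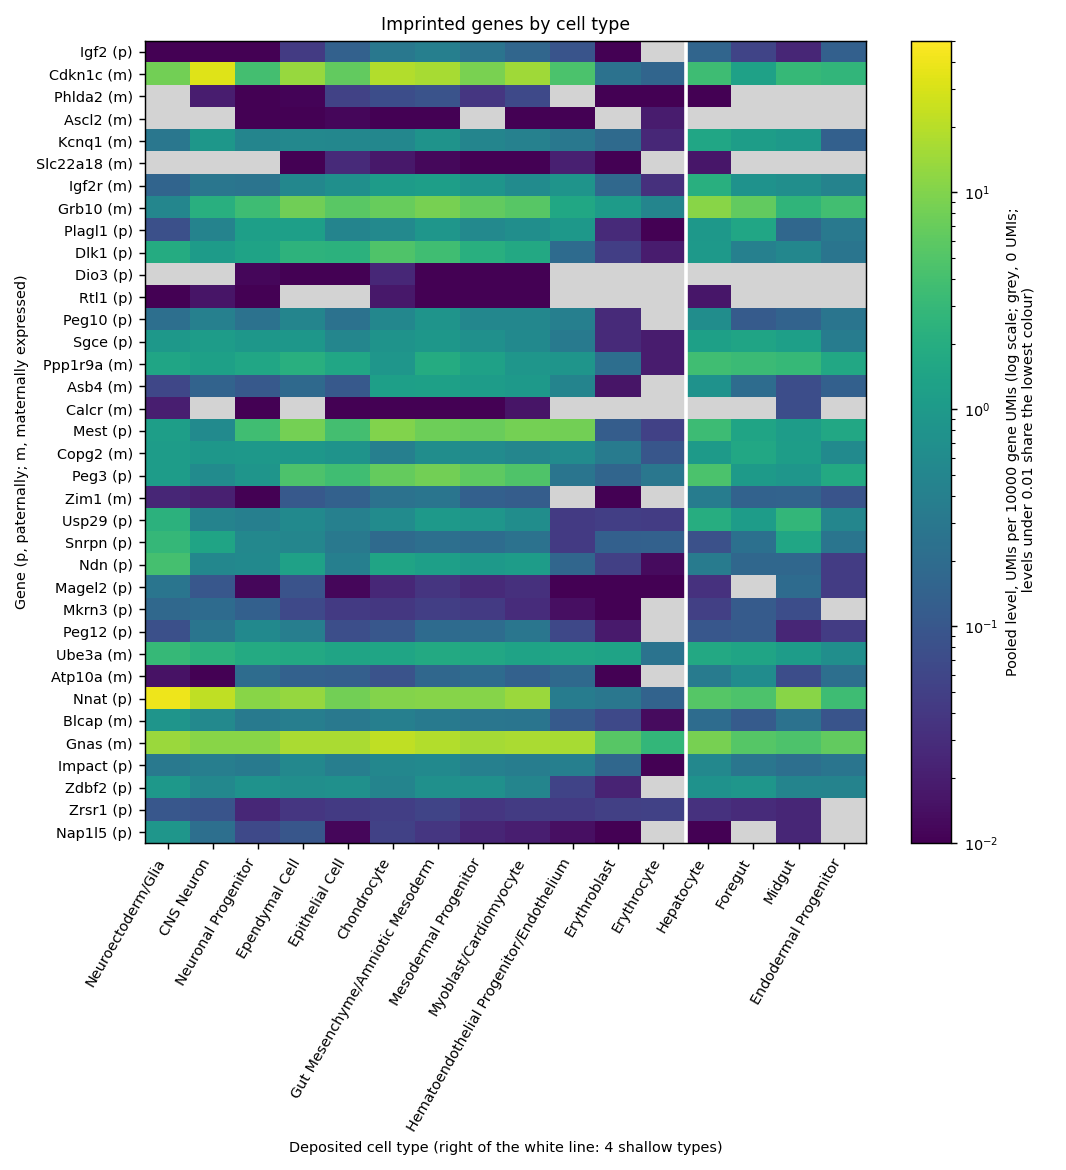
Pooled level of each of the 36 imprinted genes (rows) in the 16 deposited cell types (columns), as UMIs per 10000 gene UMIs on a log colour scale; grey marks 0 UMIs and the white line sets off the 4 shallow types. Nnat, Snrpn, Ndn and Nap1l5 were brightest in Neuroectoderm/Glia, Mest and Peg3 in mesenchymal types, and red blood cells were dark in nearly all rows.

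Among genes that restrain growth, Cdkn1c, which encodes the cyclin-dependent kinase inhibitor p57, was highest in the cells labelled CNS Neuron. In CNS Neuron its level was 29.6, 32.0, 33.5 and 35.9 (pooled 32.9, 95% interval 32.4 to 33.3). The next type, Chondrocyte, reached 22.8, 20.2, 15.3 and 15.1 in the same order, below CNS Neuron in every suspension without overlap. In Neuroectoderm/Glia, whose cells held more neuron marker UMIs than CNS Neuron, Cdkn1c was only 6.32, 8.24, 9.51 and 9.9. In Neuronal Progenitor it was 3.93, 8.38-fold lower than in CNS Neuron; p57 is known to rise as cells leave the cycle. A UMI of Cdkn1c was found in 97.0% of CNS Neuron cells and in 75.2% of Neuronal Progenitor cells; with each cell thinned to 5000 UMIs the shares were 94.2% and 52.1%.

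Grb10, an adaptor that dampens insulin and IGF receptor signalling, was highest in Gut Mesenchyme/Amniotic Mesoderm, at 8.49, 8.32, 10.1 and 9.06, and these values overlapped those of Ependymal Cell, 6.70, 9.72, 8.78 and 6.54. In Neuroectoderm/Glia it was 0.504, 17.5-fold below its highest level, while CNS Neuron had 2.08, 2.27, 2.21 and 2.07. A Grb10 UMI was in 99.7% of the Gut Mesenchyme/Amniotic Mesoderm cells and 29.7% of Neuroectoderm/Glia cells (96.4% and 16.6% after thinning). The share in Erythrocyte was 65.0% (26.7% after thinning), at a median depth of 24289 UMIs against 11437.5, so the share in Neuroectoderm/Glia is not read as expression. Igf2r, the receptor that takes up IGF2 for degradation, had 1.24, 1.13, 1.14 and 1.19 in Gut Mesenchyme/Amniotic Mesoderm, again lowest in Neuroectoderm/Glia (0.158), with shares of cells of 68.8% and 16.3% (38.8% and 6.54% after thinning; 6.67% of Erythrocyte cells unthinned). Plagl1, a zinc finger regulator of cell cycle exit, was uneven between suspensions in its highest type, Ependymal Cell, at 1.83, 0.946, 1.75 and 0.472. The marker list of this type (Foxj1, Ttr, Msx1, Wnt3a) was uneven too, at 34.5, 10.3, 17.3 and 2.87, and its part in this and other values of Ependymal Cell was not tested. The Hepatocyte list, which shares only Ttr with it, was at 32.4, 6.64, 14.9 and 0.0211 in the same cells. The unevenness need therefore not be that of Foxj1, Msx1 and Wnt3a. The level of Plagl1 in Neuronal Progenitor, 1.23, could not be told from the pooled 1.24 of Ependymal Cell.

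Mest, Peg3, Dlk1, Peg10 and Asb4 had their highest levels in mesenchymal types. Mest, a hydrolase-like gene used as a mesoderm marker, reached 8.52, 9.65, 11 and 11 in Chondrocyte, and 8.52 pooled in Myoblast/Cardiomyocyte. In CNS Neuron it was 0.576, 0.581, 0.580 and 0.607, 17.0-fold lower than in Chondrocyte. The neuron values were close together, and the Chondrocyte and Myoblast/Cardiomyocyte ranges overlapped. Peg3, a zinc finger protein of growth and maternal behaviour, was 6.96, 7.60, 8.63 and 10.1 in Gut Mesenchyme/Amniotic Mesoderm and 6.58 in Chondrocyte. It stood at 0.608 in CNS Neuron and 0.275 in Hematoendothelial Progenitor/Endothelium, 29.5-fold below its highest level. Erythrocyte had 0.296, so this fold is a rough one. In the Hematoendothelial cells split by markers below, Peg3 was 0.553 with more endothelial and 0.0541 with more macrophage marker UMIs. Peg3 UMIs were in 91.8% of the Gut Mesenchyme/Amniotic Mesoderm cells and 26.3% of Hematoendothelial cells, beside 41.7% of Erythrocyte cells (81.1%, 12% and 11.7% after thinning).

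Dlk1, a Notch-family ligand of progenitor tissues, was highest in Chondrocyte in every suspension, at 5.2, 4.29, 5.70 and 3.89, ahead of 3.69 in Gut Mesenchyme/Amniotic Mesoderm. A Dlk1 UMI was in 68.2% of Chondrocyte cells (56.1% after thinning), and the 10% of these cells with most Dlk1 UMIs held 48.5% of them. Dlk1 UMIs were thus concentrated in part of these cells. Peg10, derived from a retrotransposon and needed in the placenta, was 0.730, 0.665, 0.795 and 1.11 in Gut Mesenchyme/Amniotic Mesoderm, and in the next type, Mesodermal Progenitor, 0.358, 0.412, 0.614 and 0.609, without overlap. Asb4, a subunit of ubiquitin ligases, had 1.01, 1.12, 1.53 and 1.70 there and 0.0605 in Neuroectoderm/Glia, a 21.1-fold range. Asb4 was also uneven within the type, with UMIs in 45.0% of Gut Mesenchyme/Amniotic Mesoderm cells (31.7% after thinning) and 54.2% of its UMIs in 10% of them.

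Igf2, the fetal growth factor that gives the class its best known member, was listed at only 1015 UMIs in all cells together. Its highest level was 0.499, 0.408, 0.294 and 0.283 in Gut Mesenchyme/Amniotic Mesoderm, with a UMI in 34.1% of cells (17.1% after thinning). A gene model called Gm49394, with 4 UMIs, stands between Igf2 and Ins2 in the feature table, and Cell Ranger leaves out reads that match overlapping models on 1 strand. Whether these models overlap could not be read from the sources used here, so the level of Igf2 is uncertain and its order across types is all that is given: Gut Mesenchyme/Amniotic Mesoderm, then Chondrocyte (0.307), Mesodermal Progenitor (0.263), and last, outside red blood cells, CNS Neuron with 2 UMIs in all.

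Snrpn, Ndn, Magel2, Mkrn3, Peg12, Ube3a and Atp10a lie in the Prader-Willi and Angelman region of mouse chromosome 7. All 7 were highest in a type with a neural name, but Atp10a was 0.202 in Neuronal Progenitor, 0.196 in Mesodermal Progenitor and 0.00818 in CNS Neuron. Snrpn, which encodes a neuronal splicing protein, was 2.96, 3.10, 3.01 and 2.72 in Neuroectoderm/Glia, above the 1.78, 1.46, 1.37 and 1.21 of CNS Neuron without overlap. It was 0.0422 in Hematoendothelial Progenitor/Endothelium, 69.9-fold lower. This low value rests on 6 UMIs, and Erythrocyte and Erythroblast had 0.142 and 0.136, so the fold is a rough one. Snurf, whose RefSeq model overlaps that of Snrpn on the same strand, was listed at 0 UMIs. Reads that match both models may have been left out in counting, so the level of Snrpn is uncertain too. Ndn, encoding necdin, a growth suppressor of postmitotic neurons, had 4.30, 3.55, 4.80 and 3.79 in Neuroectoderm/Glia and was next highest in Chondrocyte at 1.35, 1.49, 1.42 and 1.45. A Ndn UMI was found in 66.3% of Neuroectoderm/Glia cells and in 75.7% of Chondrocyte cells, but in 58.3% and 47.6% after thinning, and the 10% of Neuroectoderm/Glia cells with most held 41.2% of its UMIs there. Ube3a, the ubiquitin ligase lost in Angelman syndrome, was broad, from 3.01 in Neuroectoderm/Glia (3.15, 2.88, 2.87 and 3.08 by suspension) to 1.41 in Myoblast/Cardiomyocyte, a 2.14-fold range over 10 deep types outside red blood cells.

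Nnat, encoding neuronatin, a small membrane protein of developing neurons, was highest in Neuroectoderm/Glia, at 45.1, 40.9, 39.7 and 32.8. CNS Neuron followed at 26.6, 25.0, 21.0 and 17.6, below it without overlap. Nnat was nonetheless present in the other 7 deep types tested at 8.11 to 13.9, and at 0.352 in Hematoendothelial Progenitor/Endothelium, 114-fold below its maximum. Every Neuroectoderm/Glia cell had a Nnat UMI, also after thinning to 5000 UMIs. Usp29, a ubiquitin protease, shared this neural maximum: 2.93, 2.71, 1.75 and 1.84 in Neuroectoderm/Glia against 0.910, 0.860, 0.953 and 1.19 in Gut Mesenchyme/Amniotic Mesoderm. Its divergent neighbour Peg3 was, by contrast, at 1.11 in Neuroectoderm/Glia, so the genes on the 2 sides of the shared interval printed above had different highest types.

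Gnas, the gene of the stimulatory G protein alpha subunit, varied little outside red blood cells. It had 21.6, 21.7, 24.1 and 21.4 in Chondrocyte and 10.9 in Neuronal Progenitor, a 2.03-fold range, and a UMI in 100% and 99.8% of their cells. Its imprinted transcripts share their 3′ ends with the biallelic main transcript, so 3′ UMIs do not separate them. Sgce, a sarcoglycan, Ppp1r9a, a regulator of actin in neurons, and Copg2, a coat protein of Golgi vesicles, were also found in all deep types outside red blood cells, with highest levels of 1.12 in CNS Neuron, 2.18 in Ependymal Cell and 1.09 in Neuroectoderm/Glia and lowest levels of 0.338, 0.845 and 0.401. Zdbf2, a zinc finger gene that acts on body size, was 0.935, 0.926, 0.969 and 0.904 in Neuroectoderm/Glia and 0.0563 in Hematoendothelial cells.

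The other 17 genes reached under 1 UMI per 10000 in every deep type. Kcnq1, a potassium channel, was highest in CNS Neuron (0.901), Blcap in Neuroectoderm/Glia (0.835), Nap1l5, a nucleosome assembly protein, in Neuroectoderm/Glia (0.889) and Peg12 in Neuronal Progenitor (0.567). Nap1l5 was 0.925, 0.839, 0.798 and 0.970 by suspension there against 0.226 pooled in CNS Neuron, without overlap. Igf2, Impact, Zim1, Magel2, Atp10a, Mkrn3, Zrsr1 and Phlda2 had highest levels from 0.561 (Impact) down to 0.0872 (Phlda2). Ascl2, Dio3, Slc22a18, Calcr and Rtl1, several of which are known for roles in placenta or in adult endocrine tissue, had 20 to 48 UMIs in all 5678 cells and no level is compared for them.

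The deposited Hematoendothelial Progenitor/Endothelium type held 76 cells that divided by their markers. In 33 cells the UMIs of Pecam1, Cdh5, Kdr and Tek outnumbered those of the macrophage markers Csf1r, C1qa, C1qb and Fcgr1, in 39 the macrophage markers did, and 4 were tied. Mest was 18.1 (95% interval 17.1 to 19.2, 1114 UMIs) in the cells with more endothelial markers and 0.0812 (6 UMIs) in those with more macrophage markers. The former exceeds the pooled level of Mest in every deposited deep type, though the other types were not split in this way. The pooled 8.06 of the type thus hid both a high level and a near absence. Cdkn1c was 10.1 against 0.0812, Grb10 3.51 against 0.0812 and Plagl1 2.15 against 0.0271. Igf2r had 111 UMIs in the endothelial cells and 0 in the macrophage-marked cells (95% upper bound 0.0499), against a level of 1.80 in the former. By suspension the endothelial values spread widely for Igf2r, at 1.11, 0.567, 1.76 and 5.03, and for Cdkn1c, at 6.57, 2.58, 19.5 and 14.1, and less for Mest, at 17.4, 17.4, 21.1 and 16.1. Ube3a (1.69 and 1.34), Copg2 (0.666 and 0.582) and Impact (0.309 and 0.487) had 95% counting intervals that overlapped, and Gnas was 24.8 against 9.31. This split was made after the values of the type were seen, from marker lists fixed with the design, and rests on cells of all 4 suspensions without a test.

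**Figure D2:**
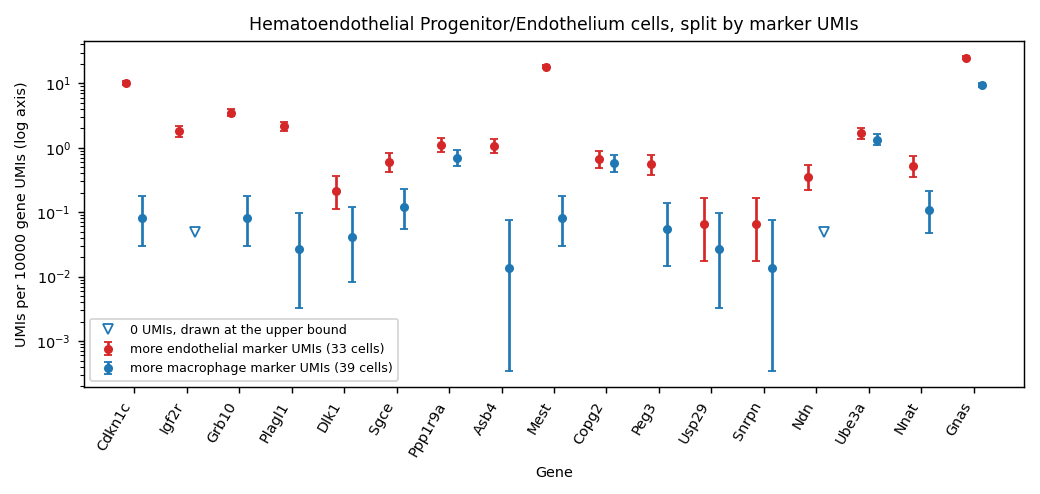
Levels (UMIs per 10000 gene UMIs, log axis) of the 17 imprinted genes that reach 1 in a deep type, in Hematoendothelial Progenitor/Endothelium cells with more endothelial (red, 33 cells) or more macrophage marker UMIs (blue, 39 cells); bars are exact Poisson 95% intervals and open triangles mark 0 UMIs at the upper bound. Mest stood at 18.1 and 0.0812, while Ube3a and Copg2 lay side by side.

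Red blood cells had the lowest joint levels of the deep types. The joint level was 10.5 in Erythroblast and 4.71 in Erythrocyte, of which Gnas made up 5.52 and 2.80. Globin genes took 69.3% of Erythrocyte UMIs, and outside mitochondrial and globin genes the joint levels were 12.1 and 15.6, in the reverse order. Ube3a was at 1.40 in Erythroblast, close to the 1.41 of Myoblast/Cardiomyocyte, and Grb10 at 1.09, above its level in Neuroectoderm/Glia. As a measure of free RNA, droplets assigned to no suspension and holding 1 to 100 gene UMIs were summed, and there Nnat was at 20.2, Gnas at 13.9 and Cdkn1c at 10.2 per 10000. In those of 100 to 300 UMIs they were at 11.9, 12.7 and 6.15. Nnat in Erythrocyte was 0.148 and Cdkn1c 0.161, or 0.490 and 0.532 outside mitochondrial and globin genes, which sets the scale of background in cells that should lack them. The levels of Nnat (0.352 in Hematoendothelial cells) and of the neural genes outside neural types should be read beside these values.

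In the 4 shallow types, mitochondrial genes took 17.8% to 50.7% of the UMIs. Grb10 was at 11.2 in Hepatocyte, above every deep type, and Midgut cells had Usp29 at 2.82 and Snrpn at 1.56, beside 2.42 and 2.95 in Neuroectoderm/Glia. Ppp1r9a was 3.0 to 3.73 in Hepatocyte, Foregut and Midgut against 2.18 at most in a deep type. Neuron markers were at 21.8 in Midgut, and the Mesodermal Progenitor markers Prrx1, Twist1, Meox1 and Tbx5 at 10.7 in Hepatocyte. The markers of the Hepatocyte and Midgut names were at 0.0611 and 0.0987 in their own types, so no cell type is read from these values.

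Founders were compared with F1 in 13 types with at least 20 cells in every suspension, 9 of them deep, by edgeR's quasi-likelihood test on summed UMIs, with Benjamini-Hochberg adjustment within a type and a threshold of 0.05. All 4 suspensions shared 1 droplet pool, and p-values measure the spread between 2 suspensions of each generation. Over all genes, 746 of 99241 gene and type pairs were called (0.752%), 488 higher (0.492%) and 258 lower (0.26%) in founders. Among the imprinted genes, 10 of 288 tested pairs were called (3.47%), 4 higher and 6 lower in founders. The pairs concern 8 genes in 6 types, and founder and F1 values did not overlap in any of them, as they did not in 47.9% of the 288 pairs and in 40.6% of all 99241. Ascl2, Dio3, Rtl1, Calcr and Slc22a18 had too few UMIs to be tested in any type. Without each suspension in turn the number of called pairs was 10 to 23: it was 10 without F0_8, 15 without F0_9, 21 without F1_1 and 23 without F1_mix. In the same order these were 3.28%, 4.87%, 7.14% and 7.85% of the imprinted pairs, and 0.481%, 1.48%, 1.34% and 1.44% of all pairs were called. Without a filter on low counts it was 40 of 430, beside 3154 of 189216 pairs over all genes.

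CNS Neuron, Neuroectoderm/Glia and Neuronal Progenitor held 1 called pair each, of 27, 26 and 26 tested. Over all genes 77 of 9916, 114 of 9901 and 70 of 10668 were called in these types, of which 47, 65 and 48 were higher in founders. Nnat in CNS Neuron was 26.6 in F0_8 and 25.0 in F0_9 against 21.0 in F1_1 and 17.6 in F1_mix, a log2 difference of 0.41 ± 0.07 (SE; adjusted p = 0.0388, edgeR). Both founder values lay above both F1 values; DESeq2, or leaving out F0_8, ended the call. Usp29 in Neuroectoderm/Glia was 2.93 and 2.71 in founders and 1.75 and 1.84 in F1 (log2 difference 0.65 ± 0.10, adjusted p = 0.0242, edgeR), and lost its call with DESeq2 and without F1_1 or F1_mix. Neuron markers stood at 67.5 and 73.1 in the founder and 83.0 and 82.0 in the F1 Neuroectoderm/Glia cells, and at 56.0 and 53.0 against 57.8 and 60.8 in CNS Neuron. Sox2, Fabp7, Pax6 and Vim were together at 2.67 and 2.53 in founders and 5.01 and 4.0 in F1 in Neuroectoderm/Glia. Their part in these differences was not tested. Mest in Neuronal Progenitor went the other way, at 2.37 and 3.14 in founders and 4.44 and 4.37 in F1 (log2 difference -0.72 ± 0.11, adjusted p = 0.035, edgeR), and lost its call without F0_8. Markers of Mesodermal Progenitor were at 0.437 and 0.375 in founders and 0.192 and 0.155 in F1 in this type, and cartilage markers at 2.66 and 2.85 against 2.52 and 2.33, and their part was not tested.

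Gut Mesenchyme/Amniotic Mesoderm held 4 of the 10 pairs, from 29 tested there; over all genes 180 of 11099 were called in this type (1.62%). Peg3 was 6.96 and 7.60 in founders and 8.63 and 10.1 in F1 (log2 difference -0.39 ± 0.08, adjusted p = 0.0356, edgeR). Asb4 was 1.01 and 1.12 against 1.53 and 1.70 (log2 difference -0.63 ± 0.10, adjusted p = 0.0133, edgeR). Zdbf2 was 0.602 and 0.594 against 0.974 and 0.845 (log2 difference -0.61 ± 0.13, adjusted p = 0.0472, edgeR). These 3 genes were lower in founders, whereas the growth inhibitor Cdkn1c was higher. It had 17.4 and 17.6 in founders and 14.7 and 14.1 in F1 (log2 difference 0.26 ± 0.05, adjusted p = 0.0322, edgeR). Each of the 4 calls was lost without F0_8, those of Peg3, Cdkn1c and Zdbf2 also without F0_9, and that of Zdbf2 also without F1_1 and with DESeq2. The cartilage markers Sox9, Col2a1, Col9a1 and Acan were together at 10.5 and 9.97 in founders and 6.75 and 6.16 in F1 in this type, and Foxf1, Barx1, Hand1 and Hand2 at 1.66 and 1.26 against 1.95 and 2.73. The part of these marker differences in the 4 calls was not tested, and fewer cells of a kind and less RNA per cell cannot be told apart in summed UMIs.

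In Chondrocyte, Cdkn1c was again higher in founders, at 22.8 and 20.2 against 15.3 and 15.1 (log2 difference 0.49 ± 0.08, adjusted p = 0.0083, edgeR); without the filter on low counts the call was lost. The cartilage markers were at 8.61 and 8.50 in founders and 4.64 and 6.03 in F1 in these cells. Sox2, Fabp7, Pax6 and Vim went the other way, at 9.76 and 10.4 against 15.7 and 12.6. The part of these markers was not tested. In Mesodermal Progenitor, Nnat was 8.2 and 8.52 in founders and 12.8 and 11.7 in F1 (log2 difference -0.56 ± 0.07, adjusted p = 0.00116, edgeR), the only call of the 10 that held under all 10 alternatives. Peg10 there was 0.358 and 0.412 against 0.614 and 0.609 (log2 difference -0.68 ± 0.15, adjusted p = 0.0378, edgeR), and lost its call with DESeq2 and without F0_8 or F0_9. Nnat thus had opposite signs in 2 types: higher in founder neurons and lower in founder mesoderm. In Mesodermal Progenitor the cartilage markers were at 7.10 and 6.37 against 4.28 and 5.51, and their part was not tested.

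**Figure D3:**
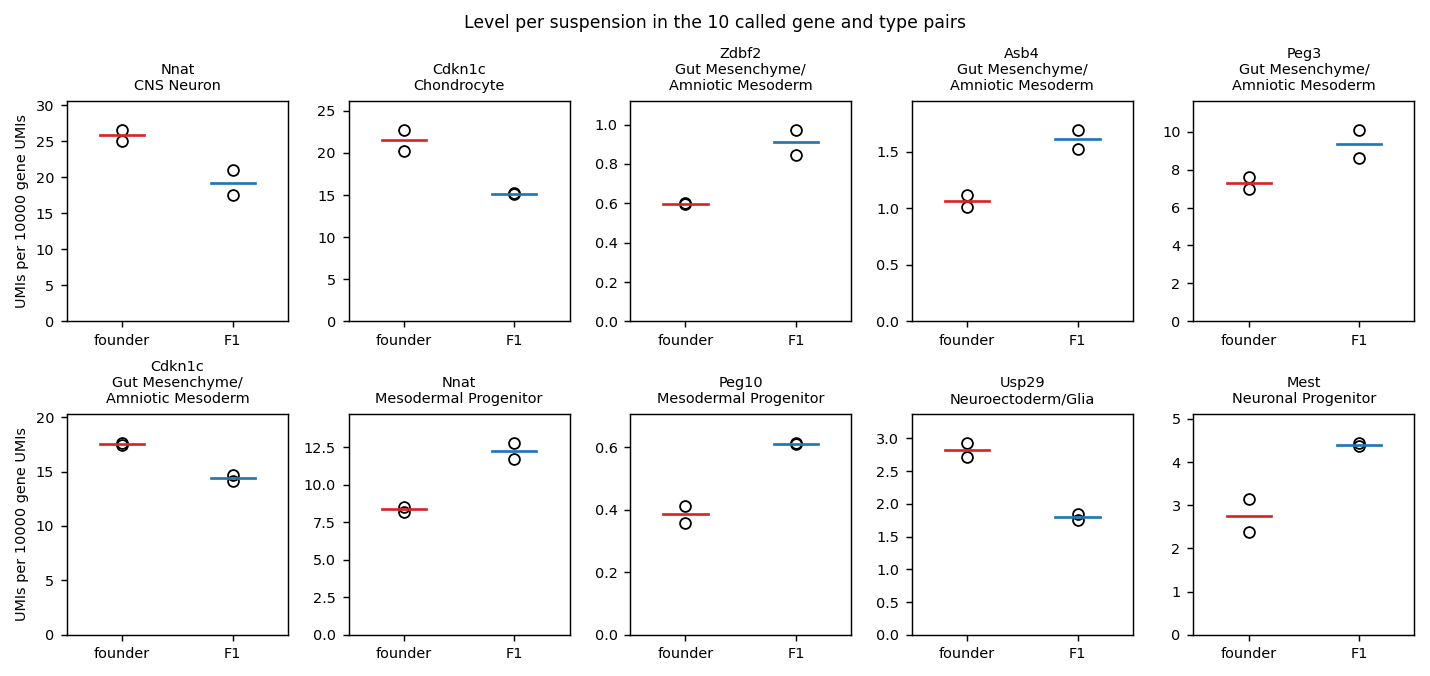
Level of each called pair (UMIs per 10000 gene UMIs, axes from 0) in the 2 founder and 2 F1 suspensions (circles), with the mean of each generation as a line. In all 10 panels the generations did not overlap; Nnat in CNS Neuron lay at 25.0 to 26.6 in founders and 17.6 to 21.0 in F1.

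Whether the founder difference of a gene differed between the 9 deep types was tested in 1 edgeR fit with suspension as a block. Over all genes 71 of 13018 were called (0.545%), and 5 of 31 imprinted genes: Nnat (adjusted p = 0.00639), Usp29 (adjusted p = 0.0167), Peg3 (adjusted p = 0.0241), Cdkn1c (adjusted p = 0.0363) and Mest (adjusted p = 0.0429). Nnat was higher in founders in 4 types and lower in 5, Cdkn1c higher in 5 and lower in 4, and Mest lower in 8 of 9. Only the call of Nnat held without each suspension in turn; without F0_8 it was the sole one left. Without F0_9 the calls of Peg3 and Usp29 were lost, and without F1_1 or F1_mix those of Cdkn1c and Mest. With RLE scaling that of Mest was lost (adjusted p = 0.0628, edgeR).

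Peg3 and Usp29, the divergent neighbours, had founder differences of the same sign in all 9 deep types. Nnat, on another chromosome, had the same signs as these except in Epithelial Cell. The founder differences of other gene pairs were not compared. In CNS Neuron the log2 differences were 0.76 ± 0.20 for Peg3 and 0.73 ± 0.20 for Usp29, and in Neuroectoderm/Glia 0.27 ± 0.15 and 0.65 ± 0.10. In Neuronal Progenitor both estimates were above 0, and in the other 6 deep types below 0: -1.54 ± 0.34 and -1.19 ± 0.35 in Ependymal Cell, -0.94 ± 0.16 and -0.81 ± 0.45 in Epithelial Cell, and -0.26 ± 0.09 and -0.64 ± 0.20 in Chondrocyte. The sets of differences had a Pearson r of 0.94 over the 9 types, a description over types that share the 4 suspensions. Of these 18 differences only those of Peg3 in Gut Mesenchyme/Amniotic Mesoderm and of Usp29 in Neuroectoderm/Glia passed the test in their own type. In Ependymal Cell, Peg3 was 1.89 and 2.89 in founders and 4.21 and 9.35 in F1, so that F1_mix stood apart (adjusted p = 0.191, edgeR). The summed marker list of this type was lowest in F1_mix, as was the Hepatocyte list that shares Ttr with it. The single markers were not compared.

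**Figure D4:**
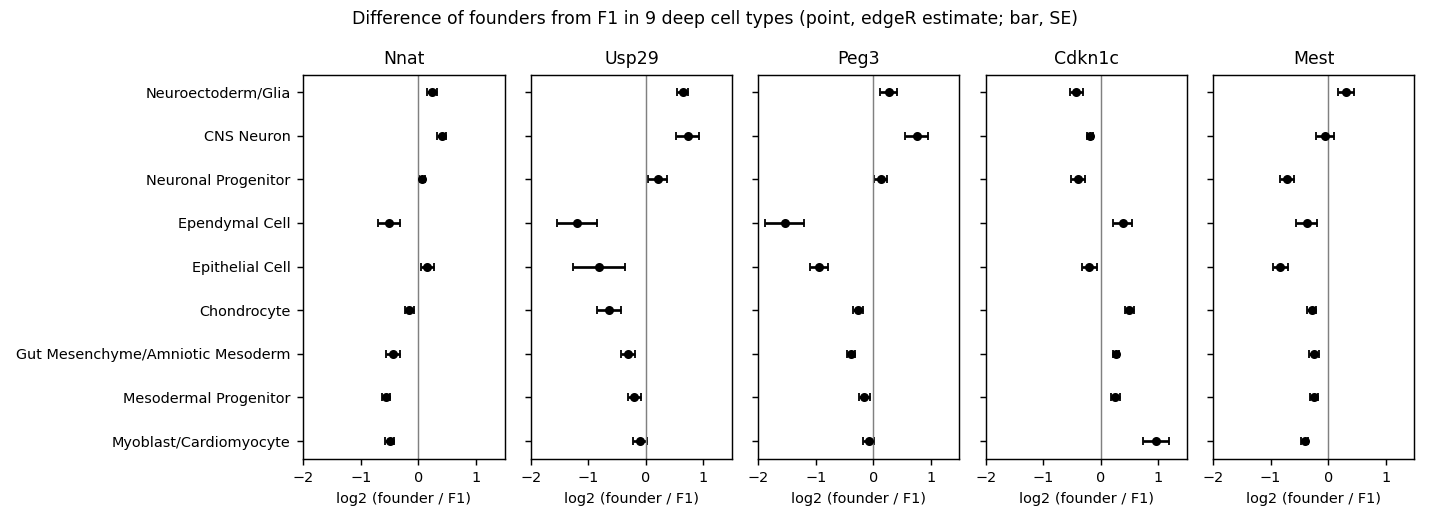
Log2 ratio of founders to F1 (edgeR estimate, bar SE) for the 5 imprinted genes whose founder difference was called as differing between types, in the 9 deep types. Usp29 and Peg3 lay on the same side of 0 in every row, and Nnat crossed from 0.41 in CNS Neuron to -0.56 in Mesodermal Progenitor.

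By parental class, 7 of 160 pairs of paternally expressed genes were called (4.38%, beside 0.752% over all genes), 2 higher and 5 lower in founders, with a median log2 difference of -0.08 over all 160. Of the 128 pairs of maternally expressed genes 3 were called (2.34%), 2 higher and 1 lower, with a median of -0.02; the median over all genes was -0.00. The paternal share of negative differences was 63.1%, against 51.6% for maternal genes and 50.1% over all genes. In Gut Mesenchyme/Amniotic Mesoderm 81.3% of the paternal differences were negative and in Mesodermal Progenitor 86.7%, beside 69.2% and 66.7% of the maternal ones and 50.4% and 49.6% over all genes. In Neuroectoderm/Glia 47.1% of the paternal differences were negative. Genes of a class share samples and cells, and the classes were not tested against each other.

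Genes that set or keep imprints were a further list. Of 21 such factors, among them Zfp57, Trim28, Dnmt1 and Uhrf1, 19 were tested in 205 pairs; edgeR called 0, with 21 pairs at an unadjusted p under 0.05 (10081 of 99241 over all genes), and DESeq2 called 0 of 190. The share of all pairs called was 0.752%. Of 39 other imprinted protein-coding genes, 25 were tested in 196 pairs and 1 was called (0.510%). DESeq2 called 2 of 184, the same one and Dlx5 in Myoblast/Cardiomyocyte. The shared call was Dcn, encoding the matrix proteoglycan decorin, in Chondrocyte, at 1.07 and 1.93 in founders and 0.627 and 0.575 in F1 (log2 difference 1.31 ± 0.25, adjusted p = 0.0221, edgeR). H19, Meg3, Kcnq1ot1 and 9 further imprinted noncoding RNAs are not among the features analysed here.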

How the data were processed

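The authors aligned 3′ reads to GRCm38 with an added EGFP sequence and counted UMIs with Cell Ranger (version 7.2.0 in the file headers). The deposited matrices hold raw counts, unchanged by the ambient correction and doublet removal (DoubletFinder) that the methods describe for the authors' own clustering; no further doublet caller was run. The deposited cell table gave cell types and suspensions as labels; 18 other value columns were not used. Of 6006 barcodes, 5678 had a type. UMIs were summed per type and suspension. Founders and F1 were compared with edgeR 4.0.16 in R 4.3.3 (TMM, filterByExpr, glmQLFTest, two-sided) over all genes. SEs are the log2 difference divided by the root of F. DESeq2 1.42.0, RLE scaling, no filter, 50 cells, a mitochondrial limit of 5%, a library without mitochondrial, globin and EGFP features, and leaving out each suspension were alternatives. On simulated sums with known changes, log2 changes of 1 and 2 were called for 65.7% and 91.5% of genes in Myoblast/Cardiomyocyte (11270 genes), and for 7.07% and 53.5% in the test of differences between types (13050 genes, changed in Chondrocyte). Thinning used draws without replacement to 2000 and 5000 UMIs, which left out shallower cells. A gene was described with values where it reached 1 UMI per 10000 in a deep type or was called in any type, 19 of 36; the other 17 were given by range. The gene set and lists were chosen with earlier results of these data known. The summed level of 1 marker list is not reported here.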

Additional observations from a re-analysis of the deposited data

Results flagged for a closer look

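For 5 genes the founder difference itself differed between the 9 deep cell types by edgeR's test of the interaction, with adjusted p = 0.00639 for Nnat, 0.0167 for Usp29, 0.0241 for Peg3, 0.0363 for Cdkn1c and 0.0429 for Mest. The estimates for Nnat, Usp29 and Peg3 were above 0 in CNS Neuron, Neuroectoderm/Glia and Neuronal Progenitor and below 0 in Ependymal Cell and in the mesenchymal and muscle types, while Cdkn1c had the opposite signs in these 8 types. Most of these estimates did not pass in their own type: those that did were Nnat in CNS Neuron and Mesodermal Progenitor, Usp29 in Neuroectoderm/Glia, Peg3 in Gut Mesenchyme/Amniotic Mesoderm, and Cdkn1c there and in Chondrocyte. In Epithelial Cell, Nnat was at 0.16 ± 0.11 and Cdkn1c at -0.20 ± 0.14 on the log2 scale. Markers of cartilage moved with generation in the mesenchymal types and markers of neurons in CNS Neuron and Neuroectoderm/Glia. In Neuronal Progenitor the neuron markers overlapped between generations, while cartilage and Mesodermal Progenitor markers did not. The part of these markers in the differences was not tested.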

How the results depend on the processing

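No paired analysis was possible because the suspensions carry no shared replicate numbers across generations. The 10 called pairs of imprinted genes remained the same 10 with RLE scaling, with 50 cells per suspension, with cells under 5% mitochondrial and with the reduced library. Without a filter on low counts 40 pairs were called, 9 of the 10 among them, with 3154 calls over all genes and 424 in the test of differences between types. The share called rose from 3.47% to 9.30% of imprinted pairs and from 0.752% to 1.67% of all pairs, and the cause was not tested. DESeq2 gave 429 calls over all genes and 12 imprinted pairs, 6 of them among the 10, and added Mest and Peg3 in Epithelial Cell and Nnat, Asb4, Mest and Plagl1 in Myoblast/Cardiomyocyte. Leaving out a suspension gave 10 to 23 imprinted pairs, of which 3 to 9 were among the 10, and 511 to 1585 calls over all genes. In the test of differences it gave 26 to 145 calls over all genes and 1 to 3 imprinted genes. No called pair changed sign. Shares of cells with a UMI depended on depth: thinning to 2000 or 5000 UMIs moved 35 of 38 shares in the highest types outside their binomial interval. The levels of the 19 described genes in their highest type moved by less than 1 SD of the 4 suspensions under every alternative. With 2 suspensions per generation, a lone suspension was assumed to vary like the other arm, and log2 changes of 1 were called for 28.1% of genes in simulations of Midgut, the 1 shallow type simulated. The limits of the simulations given above apply here too.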

Other observations

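Levels of neighbouring imprinted genes were compared over the 10 deep types outside red blood cells. The Pearson r on log2 levels and Spearman rho were 0.96 and 0.92 for Peg3 and Zim1, 0.85 and 0.95 for Asb4 and Peg10, 0.90 and 0.55 for Nnat and Blcap, and 0.51 and 0.66 for Peg3 and Usp29. They were 0.07 and -0.08 for Peg10 and Sgce, whose gene models lie next to each other on chromosome 6, and -0.68 and -0.72 for Mest and Copg2, whose models overlap on opposite strands. These are descriptions over 10 types that share the 4 suspensions.

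Unevenness between cells of a type differed among genes. The 10% of CNS Neuron cells with most Cdkn1c UMIs held 35.2% of them, and the per-cell level there had a median of 21.7 and a 90th percentile of 93.7 per 10000. For Gnas in Chondrocyte the top 10% held 18.8%, with a median of 21.6 and a 90th percentile of 33.7. Myoblast/Cardiomyocyte had Cdkn1c at 29.1 and 16.3 in founders and 11 and 12.1 in F1. The muscle markers of this type were at 15.4 in F0_8 and 1.82 to 3.94 in the others, and edgeR called 0 of all 11260 genes tested in it, with 1049 at an unadjusted p under 0.05, 9 of them among the 31 imprinted genes tested. DESeq2 called 36 of 11260 there, 4 of them imprinted genes; their part was not tested.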
